A study of Mus musculus with 4 samples.

Results

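FLAG-tagged PRDM6 gave peaks in mouse outflow tract smooth muscle cells (SMCs) that lie far from the gene starts they were assigned to, and the peaks described here are those in intergenic sequence more than 100 kb and at most 300 kb from the transcription start site (TSS) to which the authors' annotation assigned them. There were 1215 such peaks among 5200 distal intergenic peaks and 13977 peaks in all. They lay on 20 chromosomes and covered 883 kb of the mm10 genome. The rule used only the annotation and the distance, so strength, sequence, grouping and the kind of gene nearby played no part in the choice.

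The series measured where PRDM6 sits on the genome by ChIP-seq, in which cross-linked chromatin is precipitated with an antibody and the DNA that comes with it is sequenced. It held 4 libraries, 2 of PRDM6 ChIP and 2 of Input, the chromatin carried through without precipitation. All 4 came from cultured SMCs of the embryonic outflow tract, the vessel at the exit of the developing heart, and all were infected with a lentivirus that overexpressed PRDM6 with a FLAG tag, so the antibody caught the tagged protein and the endogenous protein was not measured. None of the 4 came from cells without the tagged protein. The study's methods speak of independent replicates and elsewhere of a single sample, so the spread between the ChIP libraries may be technical. The peaks had been called in each ChIP library against its Input and then matched between libraries, and no value of Input stood in the list. Library depth was not analysed here, and a ChIP assay gives no expression with which to check the cell type against its markers.

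PRDM6 belongs to the PR domain family of zinc finger proteins, many of which act with chromatin-modifying enzymes to hold genes in a repressed state, and it is enriched in SMCs. Distal intergenic sequence can hold enhancers and silencers, which reach their genes by looping of the chromatin and often skip the nearest gene, so a gene name below says where a peak is and not which gene it acts on. AP-1, a dimer of FOS and JUN proteins, and the TEAD factors, which carry YAP and TAZ to DNA, commonly occupy distal elements of mesenchymal cells. SRF with its myocardin-family partners binds the CArG box of contractile genes, close to their promoters.

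The sequences below are the 151 bp around the summits of 8 of the strongest of these peaks, from the GRCm38 reference (RefSeq), the same build as mm10. They were chosen to show peaks with an AP-1 or TEAD motif within 50 bp of the summit beside 3 strong peaks that had neither there, the strongest of that kind apart from the Zfp608 peak, which is not shown. Capitals mark AP-1 letters (TGAGTCA or TGACTCA) and TEAD letters (AGGAATGC, AGGAATGT, GGGAATGC or GGGAATGT) on the plus strand as read. A site on the minus strand would appear as its reverse complement and would be capitalised too.
1700028M03Rik peak summit, chr3:83446291-83446441, plus strand: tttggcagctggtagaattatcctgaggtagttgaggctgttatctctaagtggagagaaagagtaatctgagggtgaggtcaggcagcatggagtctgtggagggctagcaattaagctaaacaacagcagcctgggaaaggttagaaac
Nr5a2 peak summit, chr1:137079419-137079569, plus strand: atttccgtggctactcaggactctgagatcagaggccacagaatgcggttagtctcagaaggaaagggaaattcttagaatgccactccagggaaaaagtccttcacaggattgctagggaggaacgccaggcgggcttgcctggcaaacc
Clic5 peak summit, chr17:44438466-44438616, plus strand: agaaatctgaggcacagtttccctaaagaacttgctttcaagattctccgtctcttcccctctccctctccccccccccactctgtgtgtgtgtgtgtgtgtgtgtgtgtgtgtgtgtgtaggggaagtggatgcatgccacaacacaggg
Adgb peak summit, chr10:10301659-10301809, plus strand: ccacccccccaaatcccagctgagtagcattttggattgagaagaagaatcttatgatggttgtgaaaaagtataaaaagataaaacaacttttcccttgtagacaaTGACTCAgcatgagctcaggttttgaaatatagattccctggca
Tnfsf18 peak summit, chr1:161621420-161621570, plus strand: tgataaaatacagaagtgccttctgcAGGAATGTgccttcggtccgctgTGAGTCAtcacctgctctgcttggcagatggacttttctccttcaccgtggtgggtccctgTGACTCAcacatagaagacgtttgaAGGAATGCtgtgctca
Jag1 peak summit, chr2:137375367-137375517, plus strand: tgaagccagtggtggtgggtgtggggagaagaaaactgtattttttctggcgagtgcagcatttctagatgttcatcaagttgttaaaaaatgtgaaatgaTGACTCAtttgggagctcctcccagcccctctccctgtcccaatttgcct
Mat2b peak summit, chr11:40552647-40552797, plus strand: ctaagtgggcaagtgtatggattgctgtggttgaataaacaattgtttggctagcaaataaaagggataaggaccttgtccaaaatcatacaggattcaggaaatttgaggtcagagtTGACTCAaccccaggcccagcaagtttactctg
Mir148a peak summit, chr6:51162621-51162771, plus strand: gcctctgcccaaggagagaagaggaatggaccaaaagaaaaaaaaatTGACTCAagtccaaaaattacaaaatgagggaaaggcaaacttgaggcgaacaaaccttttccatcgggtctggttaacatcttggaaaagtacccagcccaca

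In the Tnfsf18 sequence 2 AP-1 and 2 TEAD motifs stood in 1 stretch of 151 bp, more than in any of the other 7. Adgb, Jag1, Mat2b and Mir148a each showed a single AP-1 motif, to the right of the summit in the first 3 and to its left in Mir148a. The Jag1 peak had a TEAD motif too, within 100 bp of its summit but outside the stretch printed. The sequences of 1700028M03Rik, Nr5a2 and Clic5, whose peaks were among the 4 strongest, held neither motif. The Clic5 summit fell in sequence that the reference marks as repeat, beside a run of alternating bases visible in the line above, and the Adgb summit was in a repeat as well.

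Strength was read from the MACS2 −log10 p-value of the peak against Input, where a higher value means a clearer excess of reads. In the first-listed replicate the median over the 1215 peaks was 6.92 (quartiles 5.42 and 9.37, highest 22.08). In the second-listed replicate it was 6.61 (quartiles 5.10 and 8.47, highest 28.76). The matched value, which is the smaller of both, had a median of 5.69 (quartiles 4.39 and 7.14) and ran from 3.01 to 20.99. Most of the peaks thus lay a few units above the lowest value, and a small number stood far above the rest. The median was 5.68 for intergenic peaks 20 to 100 kb from a TSS, 5.53 for those beyond 300 kb and 5.53 for all peaks.

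The replicates ranked these peaks only loosely alike, as they did the whole list. Over the 1215 peaks Spearman's rho between the replicates was 0.271, and over all 13977 it was 0.263, where peaks share the same libraries and are not independent. The first-listed replicate gave the higher value at 663 peaks (54.6%) and the second-listed at 552, and the values were within 2 units of each other at 602 (49.5%). Both were above 10 at 85 peaks (7%), and only 1 of them was above 10 at 269 (22.1%). Values piled up at a few levels. In the first-listed replicate the 10 commonest values took in 618 peaks (50.9%), 6.92 being the commonest with 90 peaks. In the second-listed replicate they took in 689 (56.7%), and the commonest, 5.84, held 111. The median distance between the summits that the replicates gave for the same peak was 116 bp.

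**Figure D1:**
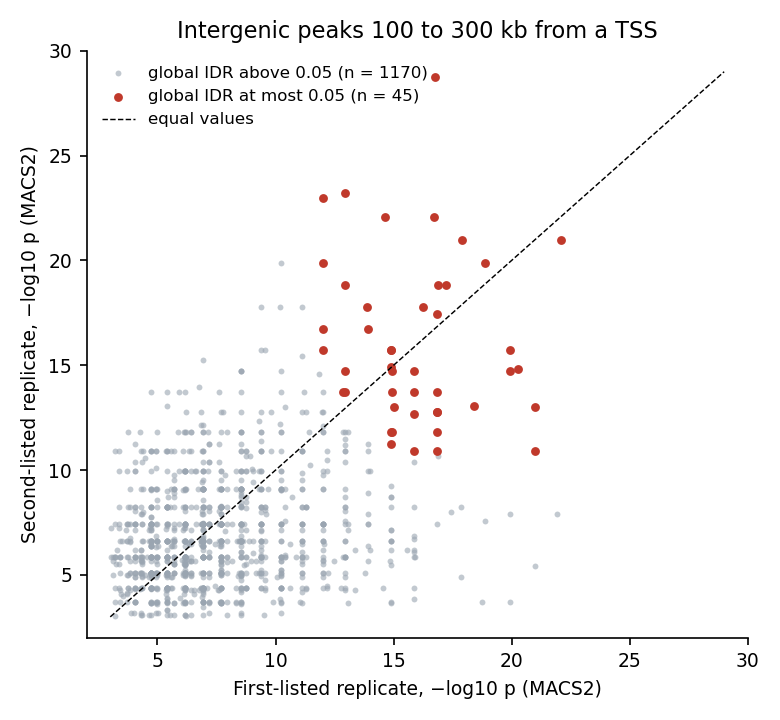
Each point is 1 of the 1215 intergenic peaks 100 to 300 kb from a TSS, with its MACS2 −log10 p-value in the first-listed replicate (x axis) and in the second-listed replicate (y axis), and the dashed line marks equal values. The 45 peaks at a global IDR of at most 0.05 (red) are all above 10 in both replicates, and the grid of grey points shows how many peaks share the same low values.

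The global irreproducible discovery rate (IDR) scores how well a peak's rank holds in both replicates. It was at most 0.05 at 45 of the 1215 peaks (3.70%, 95% Wilson interval 2.78 to 4.92), where 3.33% of all peaks passed, and at most 0.01 at 13 (1.07%), where 0.994% of all peaks passed. A total of 465 peaks (38.3%) had the lowest score in the list, where 41.4% of all peaks had it. These counts were read from the deposited score, which is a scaled form of the IDR. The Flrt2 peak, listed at 0.0501 from a rounded value, passed by its score of 541. The share of well-matched peaks was thus close to that of the whole list. Peaks at a global IDR of at most 0.05 were wider, with a median of 1176 bp against 604 bp for the rest. The median width of all 1215 was 616 bp.

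The strongest peak was assigned to 1700028M03Rik, a long non-coding RNA gene, at chr3:83446146-83447647. It had −log10 p-values of 22.08 in the first-listed and 20.99 in the second-listed replicate. The nearest protein-coding TSSs on its sides were those of Dchs2, 318198 bp away, and Sfrp2, a secreted Wnt modulator, 318674 bp away. The next peak was 118550 bp upstream of Nr5a2, an orphan nuclear receptor, with values of 18.89 and 19.90. The peak 203028 bp upstream of Zfp608, a zinc finger gene, had 17.88 and 20.99 and the only CArG box among the 10 strongest. These 3 were high in both replicates, and they are 3 of the 13 whose global IDR was 0.01 or lower.

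The peak 258570 bp upstream of Jag1, a Notch ligand that neural crest and SMCs of the outflow tract depend on, measured 16.71 and 22.09 at chr2:137375214-137375846. The summits of the replicates were 3 bp apart there, while they were 677 bp apart at Zfp608 and 550 bp at Mat2b, and the motifs given for the Zfp608 and Mat2b peaks are those near the matched summit. Jag1 had 15 peaks in the whole list, of which 2 were at its promoter, 3 in its introns and 7 distal intergenic ones more than 300 kb away, and this was its only peak in the 100 to 300 kb range. Tnfsf18, a ligand of the TNF family, had the highest single value of any of the 1215 peaks, 28.76 in the second-listed replicate, against 16.76 in the first-listed. Its peak lay between Tnfsf18, 126475 bp away, and Fasl, 166181 bp away.

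Among the others at a global IDR of at most 0.01, the Erbb4 peak measured 16.89 and 18.83 and the Clic5 peak 17.23 and 18.83. Clic5 is an intracellular chloride channel gene, and the same interval runs up on its other side to Runx2, the osteoblast transcription factor, at 296567 bp. Adgb, which encodes a globin, had 16.85 and 17.46 at its peak, and Mat2b, a regulatory subunit of methionine adenosyltransferase, had 16.24 and 17.78. At 4 peaks the replicates were farther apart. Adgrl2, an adhesion receptor of the latrophilin family, had 19.94 and 15.72, Egflam, a matrix protein gene, 20.29 and 14.81, Tbl1xr1 19.91 and 14.71, and the microRNA gene Mir148a 14.65 and 22.09. The first-listed value was the higher at Adgrl2, Egflam and Tbl1xr1, and the lower at Mir148a.

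Many of the peaks had neighbours, at a share no higher than that of other peaks. Joined wherever the gap was at most 50 kb, they made 701 clusters, of which 431 were single peaks and 270 held at least 2. Those 270 took in 784 peaks (64.5%), and the 32 clusters of at least 5 took in 192 (15.8%). With a gap of 20 kb only 12 clusters held at least 5. Another peak of the list lay within 10 kb of 501 of the 1215 (41.2%), where the share was 43.7% at 20 to 100 kb, 42.6% beyond 300 kb and 47.7% over all peaks, so neighbouring peaks cannot be counted as independent sites.

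The largest cluster held 10 peaks in 147 kb upstream of Tbl1xr1 (chr3:21817036-21963982), which encodes a subunit of the NCoR and SMRT corepressor complexes. On its far side the nearest protein-coding TSS, that of the angiotensin receptor gene Agtr1b, was 1449859 bp off. The strongest of the 10, 140102 bp upstream, is the one named above. The weakest, 258375 bp upstream, had 11.12 and 4.17, and the median matched value was 5.56. So 1 strong peak stood among 9 that were ordinary for the list, and 3 of the 10 had the lowest score.

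The 9 peaks upstream of Erbb4, a receptor for neuregulins that is needed in heart development, covered 164 kb (chr1:69212193-69376310) and had a median of 6.92. The 2 highest lay at the far end, 259264 bp upstream with 16.89 and 10.67, and 266739 bp upstream with 16.89 and 18.83. Next to Erbb4 itself, 104134 bp upstream, the value was 6.92 in the first-listed replicate and 4.17 in the second-listed. Among these 9 peaks were 2 with an AP-1 motif and 2 with a TEAD motif. Erbb4 had 14 peaks in the list in all, 1 of them at its promoter.

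A further 8 clusters held 7 peaks each, of which the 3 with the highest summed strength, at Foxa2, Flrt2 and Mctp2, are described. That of Foxa2 was the most compact of the 8. Foxa2 encodes a forkhead factor of endoderm and floor plate, and all 7 peaks assigned to it lay within 36.3 kb, from 124104 to 159627 bp upstream, with matched values of 4.32 to 9.37 and none at a global IDR of at most 0.05. The Flrt2 cluster spanned 72.3 kb and ran from 5.42 to 10.89. Flrt2 is a transmembrane protein that binds guidance receptors, and it had 5 promoter peaks besides. The Mctp2 cluster spanned 154 kb, ran from 3.03 to 12.03, and came with no promoter peak of the gene.

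**Figure D2:**
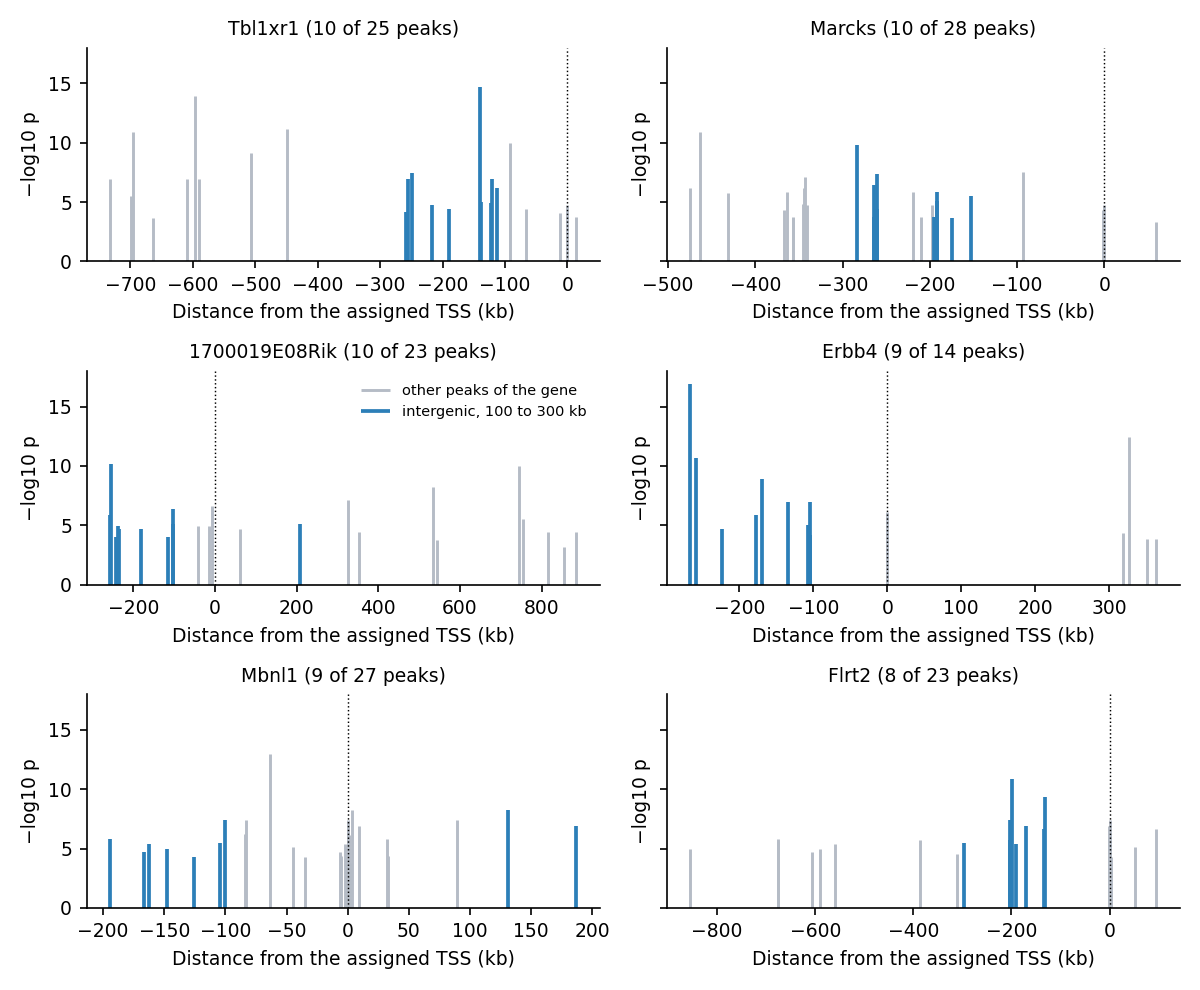
Peaks assigned to the 5 genes with the most peaks in the 100 to 300 kb range and to Flrt2, which has the highest summed strength of 4 genes tied at 8 peaks, by signed distance from the assigned TSS in kb (x axis, dotted line at the TSS) and matched −log10 p-value (y axis), with these peaks in blue and all other peaks of the gene in grey. The blue peaks of Erbb4 rise to 16.89 at the far end, and all 10 blue peaks of Tbl1xr1 and of Marcks lie upstream.

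In all, 605 genes had at least 1 of these peaks assigned, 11.5% of the 5243 genes with any peak. A single peak was assigned to 314 of them, 2 to 137, 3 to 77, 4 to 40 and at least 5 to 37. Tbl1xr1, Marcks and the non-coding gene 1700019E08Rik had 10 each. Marcks encodes a substrate of protein kinase C that tethers actin to the membrane, and its 10 peaks had a median of 5.30 and a highest matched value of 9.82. Mbnl1, a splicing regulator, had 9 peaks on both sides of its TSS, 7 of them upstream, and 6 promoter peaks. Gm13985, B230303A05Rik and Cenpw had 8 each. Cenpw encodes a centromere protein.

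A promoter peak was present too at 193 of the 605 genes (31.9%) and an intron peak at 254 (42%). Of all 5243 genes with a peak, 38.7% had a promoter peak and 46.2% an intron peak, a set that holds genes included for that peak alone. Neither was present at 280 (46.3%), and 131 genes (21.7%) had no peak of any other kind. Of the 1215 peaks 844 (69.5%) were assigned to 434 protein-coding genes, 241 (19.8%) to long non-coding or antisense RNA genes, 76 (6.26%) to microRNA genes and 30 (2.47%) to pseudogenes. Names could not be matched for 22.

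The distance depends on which gene starts are counted. In the GENCODE annotation 953 of the 1215 peaks (78.4%) had the TSS of some gene within 100 kb. Over all 1215 the median distance to the nearest such TSS was 46163 bp. That TSS was within 20 kb at 317 peaks (26.1%). Among these were the strongest peaks assigned to Erbb4, Egflam and Adgb, at 1011, 488 and 4358 bp. The nearest such gene was a pseudogene at 413 of the 953, a long non-coding or antisense RNA at 378 and protein coding at 5. Counting only protein-coding genes, 12 peaks (0.988%) had a TSS within 100 kb, 1011 (83.2%) had the nearest at 100 to 300 kb and 192 (15.8%) had none within 300 kb. The assigned gene was the one with the nearest protein-coding TSS at 792 peaks (65.2%). So the peaks were far from protein-coding TSSs under both annotations, but not from every annotated TSS. Distance to the other end of a gene was not measured.

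Outside protein-coding transcripts, peaks were densest at 20 to 100 kb from a protein-coding TSS and sparser both nearer and farther. There were 4.69 peaks per Mb of sequence (95% Poisson interval 4.42 to 4.98) at 3 to 20 kb, 5.66 (5.44 to 5.88) at 20 to 100 kb, 4.88 (4.66 to 5.1) at 100 to 300 kb and 2.62 (2.47 to 2.78) beyond. The last 3 intervals do not overlap, while those at 3 to 20 kb and at 100 to 300 kb do. Poisson intervals take the peaks as independent, which neighbouring peaks are not, so they may be too narrow. Within the range the density was 5.37 at 100 to 150 kb, 4.71 at 150 to 200 kb, 4.55 at 200 to 250 kb and 4.49 at 250 to 300 kb, where neighbouring intervals overlap. The count at 100 to 300 kb was 1861 peaks in 382 Mb and takes in peaks that the authors' annotation assigned to nearer non-coding genes. Mappability was not taken into account, and this comparison was chosen after the values were seen.

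**Figure D3:**
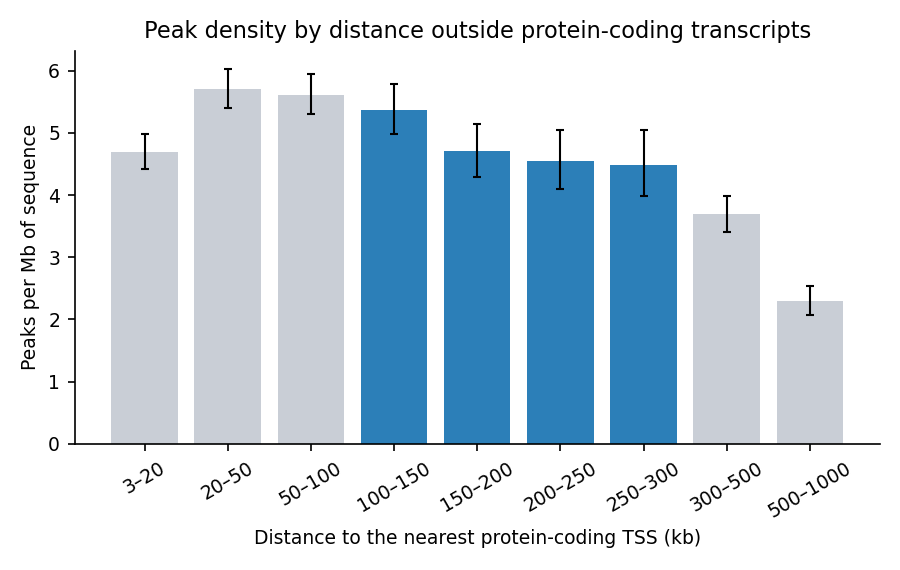
Peaks per Mb of sequence outside protein-coding transcripts (y axis) by distance to the nearest protein-coding TSS in kb (x axis), with 95% Poisson intervals and the range of 100 to 300 kb in blue. The bars rise from 4.69 at 3 to 20 kb to 5.70 at 20 to 50 kb and then come down to 2.29 at 500 to 1000 kb, and the bins are of unequal width.

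Chromosomes differed in how many of these peaks they held. The 1011 that were 100 to 300 kb from a protein-coding TSS made 2.65 per Mb of such sequence overall. Chromosome 15 had 4.84 (95% Poisson interval 3.8 to 6.08) and chromosome 10 had 4.69 (3.79 to 5.75). Chromosome 7 had 1.14 (0.665 to 1.83) and the X chromosome 0.297 (0.142 to 0.546). These intervals also take the peaks as independent. Of all peaks in the list, chromosomes 15 and 10 held 863 and 956, of which the peaks described here were 9.39% and 12.3%, and chromosome 7 held 577, of which they were 4.16%. In the whole list they were 1215 of 13977. Chromosome 15 (104 Mb) held more peaks of the whole list than the longer chromosome 7 (145.4 Mb), so part of their difference in density was shared by the whole list. The X chromosome held 11 of the 1215 peaks (0.905%) and 93 of all 13977 (0.665%), so its low count was shared by the whole list, and copy number and mappability by chromosome were not tested. On the autosomes alone the density at 100 to 300 kb from a protein-coding TSS was 5.31 peaks per Mb in place of 4.88.

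Peaks lay on both sides of the genes about equally. Of the 1215, 632 were upstream of the assigned TSS and 583 downstream, so 52% were upstream (95% interval 49.2 to 54.8). The upstream share was 71.9% within 20 kb, 59.2% at 20 to 100 kb and 49.1% beyond 300 kb. The difference was -7.23 percentage points (95% Newcombe interval -10.7 to -3.75) from the peaks at 20 to 100 kb and 2.87 (-1.9 to 7.63) from those beyond 300 kb. An intergenic peak cannot lie inside its gene, which by construction takes away downstream positions near the TSS. How much of these shares that accounts for was not tested. These differences were set up after the shares were seen.

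AP-1 and TEAD motifs were concentrated at the summits. An AP-1 motif lay within 100 bp of the summit in 196 of the 1215 peaks (16.1%, 95% interval 14.2 to 18.3), where 14.3% of all peaks had one. The windows 1000 bp to either side, which together were as long as the one at the summit, held it at 57 peaks (4.69%). Over all peaks these windows held it at 3.96%. For the 1215 peaks the share was 3.44-fold higher at the summit (exact two-sided McNemar test over peaks, adjusted p = 2.68e-19 over 8 motifs). A TEAD motif was at the summit of 100 peaks (8.23%, 6.81 to 9.91), where 7.45% of all peaks had one. It was in the flanking windows of 46 peaks (3.79%), where the share over all peaks was 3.23%. The ratio for the 1215 peaks was 2.17 (exact McNemar test, adjusted p = 1.97e-05). Both strands were searched, and a match is a stretch of letters and not evidence of binding. The study had already reported AP-1 and TEAD sequences as overrepresented among its peaks, so these tests on a part of them are not independent support. The p-values count each peak as a separate trial, although many of the peaks had neighbours.

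With 50 bp bins, AP-1 motifs numbered 1.07 per kb of sequence in the bin just right of the summit and 0.988 just left of it, against 0.198 in the bin from 1000 to 950 bp to the left and 0.247 in that to the right. TEAD motifs numbered 0.494 and 0.412 per kb at the summit, against 0.115 and 0.181 in those outer bins, and reached 0.28 in a bin 800 to 850 bp to the right. Both motifs were present at 20 peaks (1.65%), at least 1 of them at 276 (22.7%), and neither at 939 (77.3%). Most of the peaks thus showed neither set of letters. Over all peaks AP-1 was at 14.3% and TEAD at 7.45% of the summits, so most of the whole list showed neither as well. A TEAD motif was found at 10.2% of the peaks with an AP-1 motif (95% interval 6.7 to 15.2) and at 7.85% of those without (6.35 to 9.67).

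**Figure D4:**
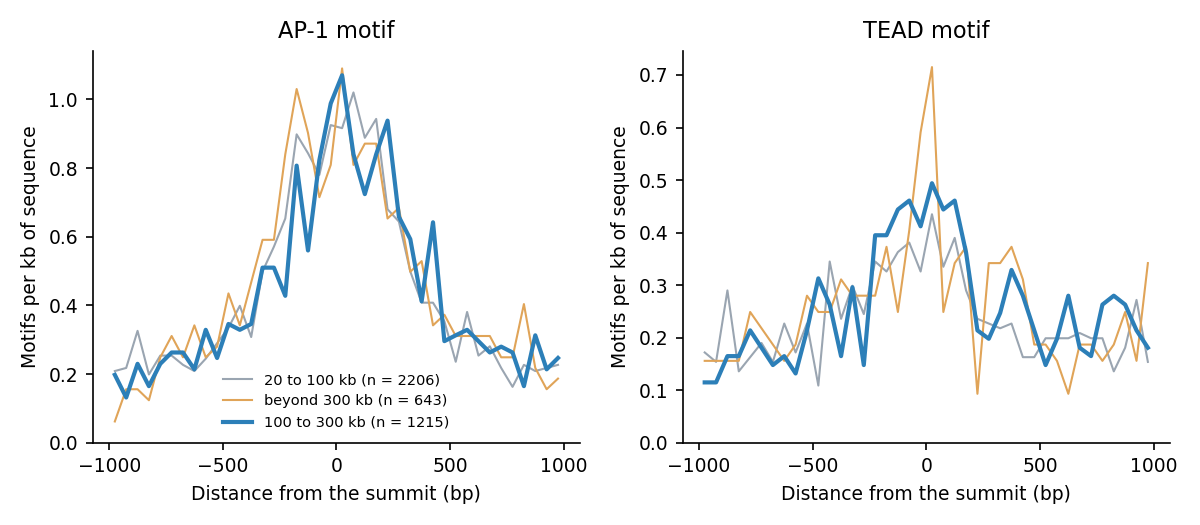
Motifs per kb of sequence (y axis) in 50 bp bins by distance from the peak summit in bp (x axis), for AP-1 (left) and TEAD (right), in intergenic peaks 100 to 300 kb from a TSS (thick blue), 20 to 100 kb (grey) and beyond 300 kb (orange). In the blue line AP-1 goes from 0.198 per kb at the left edge to 1.07 at the summit and 0.247 at the right edge, and TEAD from 0.115 to 0.494 and 0.181, and the lines of the other peaks rise at the summit too, with bins that scatter above and below the blue line.

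The other 6 motifs were not past the threshold. The study gives the sequence proposed as a PRDM6 site as TTTC/AT. It was read here as TTTCAT or TTTCCT (written TTTCMT), and other readings, such as TTTCT or TTTAT, were not searched. The TTTCMT letters were at the summit of 555 peaks (45.7%), where 43.1% of all peaks had them. They were in the flanking windows of 539, with a ratio of 1.03 (exact McNemar test, adjusted p = 0.723). The RUNX letters TGTGGTT were at 86 summits (7.08%, all peaks 6.71%) and 62 flanks, a ratio of 1.39 (exact McNemar test, adjusted p = 0.128). The RUNX ratio passed the threshold with narrower or wider windows, with flanks 3000 bp away and with the summits of the first-listed replicate. The forkhead letters TGTTTAC were at 51 summits (4.2%, all peaks 3.54%) and 43 flanks, a ratio of 1.19 (exact McNemar test, adjusted p = 0.723).

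The CArG box, the site of SRF, was at 19 summits (1.56%, all peaks 1.41%) and 13 flanks, a ratio of 1.46 (exact McNemar test, adjusted p = 0.723). The CTCF motif was at 2 summits and 2 flanks (0.165%, all peaks 0.415%), and so was the cAMP response element TGACGTCA (0.165%, all peaks 0.286%). At the summits of the first-listed replicate the CArG box ratio was 2.44 (exact McNemar test, adjusted p = 0.0589) and at those of the second-listed replicate 1.08. With counts as low as those of CTCF and the cAMP response element, a concentration at the summit was not detectable. AP-1, TEAD, RUNX, forkhead and cAMP response element letters differ from each other, and no motif was counted for another.

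The share of peaks with a motif went with peak strength. In the 405 weakest, the 405 middle and the 405 strongest peaks, AP-1 was at 13.3%, 15.3% and 19.8% of the summits, and TEAD at 6.42%, 6.67% and 11.6%. At a global IDR of at most 0.05, 14 of 45 peaks had an AP-1 motif (31.1%) and 10 had a TEAD motif (22.2%). The shares were 15.6% and 7.69% at the 1170 peaks above that limit. The differences were 15.6 percentage points for AP-1 (95% Newcombe interval 3.77 to 30.2) and 14.5 for TEAD (4.71 to 28.6), both chosen after the shares were seen. The TTTCMT share was 42.2% in the first group and 45.8% in the second.

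Across the range of distance, AP-1 was at 17.3% of the summits at 100 to 150 kb (95% interval 14.4 to 20.7), 16% at 150 to 200 kb, 17.2% at 200 to 250 kb and 11.3% at 250 to 300 kb (7.36 to 17). These intervals overlap. TEAD went from 9.87% at 100 to 150 kb (7.62 to 12.7) to 5.36% at 250 to 300 kb (2.84 to 9.87), again with overlap. The median strength was 5.69, 5.67, 5.67 and 5.87 in the same order. The AP-1 share was 18.4% downstream and 14.1% upstream of the assigned TSS, a difference of 4.27 points (0.127 to 8.45) chosen after it was seen.

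Set against the nearer and farther intergenic peaks, the 1215 peaks differed little in most measures. Over 10 measures and both comparison sets, 20 differences in share were computed. Only 1 had a 95% Newcombe interval off 0 with the matched peaks. The TEAD difference from the peaks at 20 to 100 kb had such an interval only under 3 alternatives. A promoter or first intron peak of the same gene accompanied 547 of the 1215 peaks (45%) and 897 of 2206 at 20 to 100 kb (40.7%), a difference of 4.36 points (0.898 to 7.83). Widened for 20 comparisons, this interval ran from -0.967 to 9.7 and included 0. The intervals cover counting error over peaks only.

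For AP-1 the difference was 0.447 points (-2.07 to 3.07) from the peaks at 20 to 100 kb and 0.891 (-2.68 to 4.26) from those beyond 300 kb. With the summits of each replicate alone the difference from the peaks at 20 to 100 kb was -0.272 and -1.48, so its sign was not stable. For TEAD the differences were 1.16 (-0.663 to 3.11) and -0.634 (-3.46 to 1.95). The TEAD difference from the peaks at 20 to 100 kb was 2.51 with 1 peak per cluster, 2.83 with peaks above the median and 2.56 with second-listed summits, each with a 95% interval off 0, and 0.405 with first-listed summits, where the interval included 0. Peaks stronger than the median of the list made up 52.6% of the 1215, a difference of 0.0994 points (-3.4 to 3.59) and 3.14 (-1.64 to 7.89). A summit in a repeat was found at 221 peaks (18.2%), a difference of -0.487 (-3.15 to 2.27) and -0.318 (-4.12 to 3.29). With all matched peaks and the main settings, these intervals left out differences beyond their bounds and did not settle those within them. Base composition moved steadily with distance, and GC around the summit had a median of 43.3% at 20 to 100 kb, 41.8% at 100 to 300 kb and 40.3% beyond. The part of GC content in the motif shares was not tested.

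**Figure D5:**
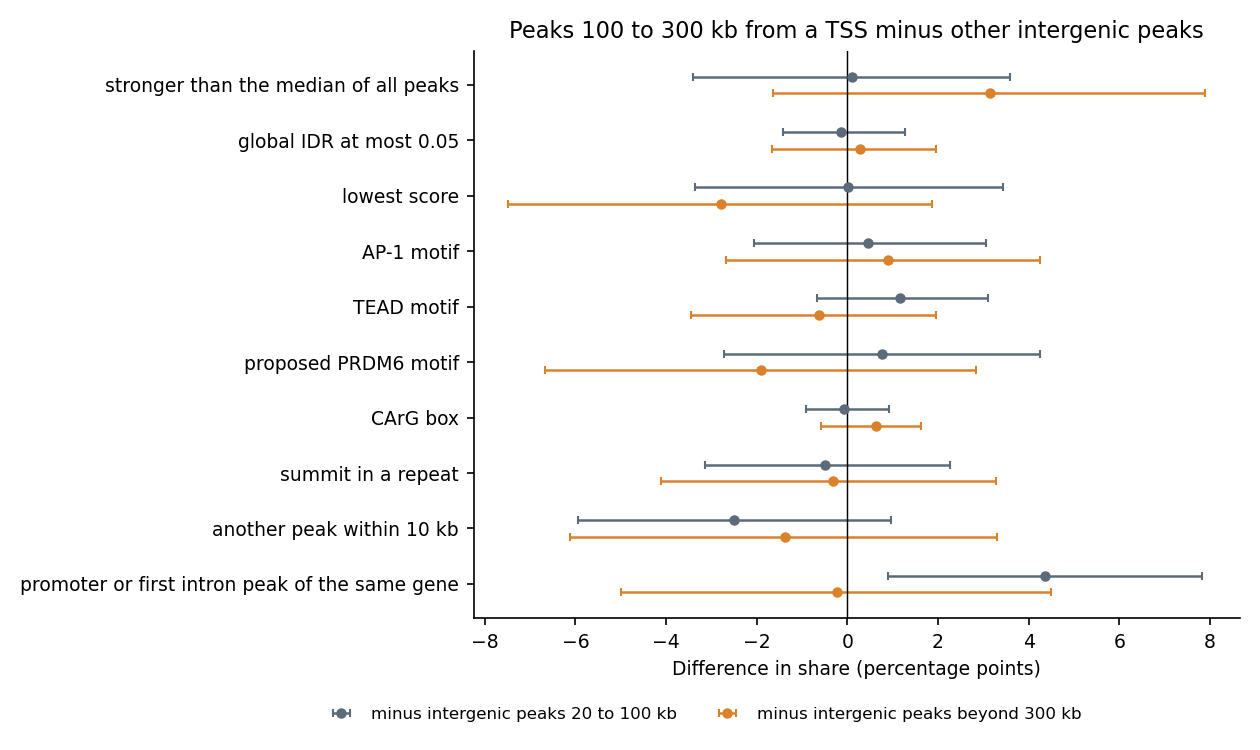
Difference in the share of peaks (x axis, percentage points) between the intergenic peaks 100 to 300 kb from a TSS and those at 20 to 100 kb (grey) or beyond 300 kb (orange), for 10 measures (y axis), with 95% Newcombe intervals. The only interval off 0 is that of a promoter or first intron peak of the same gene against the peaks at 20 to 100 kb, at 4.36 points. The proposed PRDM6 motif is TTTCMT, the reading of the study's TTTC/AT used here.

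Genes were then read by role, in lists chosen with earlier results of these data known and given as counts with no test. Of all genes with a peak, 11.5% had one of these intergenic peaks. Among contractile and actin genes of smooth muscle 7 had a peak and 0 had one in this range, and among SRF, myocardin and partner genes it was 0 of 12. The sequence available differed between lists, since only 0.04 Mb of intergenic sequence lay 100 to 300 kb from a contractile gene as its nearest protein-coding TSS, against 7.03 Mb for the outflow tract and neural crest transcription factors. The SRF and partner genes had 0.942 Mb of it.

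Outflow tract and neural crest transcription factors had such a peak at 13 of the 30 genes with any peak (43.3%), with 36 peaks and a median strength of 6.11. By the nearest protein-coding TSS they had 5.55 peaks per Mb of sequence, where the whole range had 2.65. Klf4, which in SMCs opposes the contractile programme, had 6 of them, all upstream, from 117649 to 202720 bp away, and the highest measured 9.37 and 10.89. Isl1, the marker of second heart field progenitors, had 4, and its strongest measured 9.37 and 10.89 as well. Tbx18, a T-box factor of the epicardium and mural cells, had 4, the strongest with 9.37 and 9.10. Foxp1, a forkhead repressor needed for outflow tract septation, had 1 of its 2 at 14.95 and 13.73, the only peak of this list at a global IDR of at most 0.05.

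Matrix genes had such a peak at 10 of 33 (30.3%), 25 peaks in all. By the nearest protein-coding TSS they had 31 peaks, or 9.32 per Mb. Has2, which makes hyaluronan, had 3 peaks between 147083 and 150813 bp upstream, and the strongest measured 18.39 and 13.05. Adamts5, a protease of aggrecan and versican, had 6 upstream peaks, from 3.35 to 6.92. The strongest upstream peak of the collagen gene Col3a1, 268130 bp away, measured 8.52 and 9.10, and that of Col1a2, 154106 bp away, 7.71 and 9.10. Adamts6, another protease of the family, reached 10.23 and 9.10. Only the Has2 peak was at a global IDR of at most 0.05.

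Guidance genes had such a peak at 11 of 26 (42.3%), with 25 peaks. Flrt2 was among them with 8. A peak 142658 bp upstream of Slit3, a ligand of the ROBO receptors, measured 11.12 and 12.76 and had an AP-1 motif. Epha7, an ephrin receptor, reached 10.23 and 9.10, and Sema3a, a repulsive semaphorin, 14.87 and 8.72, where the replicates were far apart. Wnt pathway genes had such a peak at 5 of 16 (31.2%), with 14 peaks. Of these the inhibitor Sfrp1 reached 8.52 and 8.49, the agonist Rspo3 7.71 and 8.25, and the receptors Fzd1 12.03 and 7.42 and Fzd8 6.92 and 9.98.

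In the remaining lists the share of genes with such a peak by the authors' assignment was lower, from 9.09% to 23.5%. It was 11.5% over all genes with a peak. Jag1 was the only 1 of 8 Notch pathway genes, and its peak was the strongest of any list. TGF-beta and BMP genes had 2 of 22, with Acvr2a, an activin receptor, at 6.15 and 7.42 and Smad6, an inhibitory SMAD, at 6.09 and 8.25. FGF, PDGF and EGF family genes had 2 of 20, the ligands Nrg1 at 8.97 and 5.67 and Pdgfc at 5.36 and 4.30. Cadherins and integrins had 4 of 17, and the highest was the protocadherin gene Pcdh18 at 8.52 and 12.76, followed by Cdh11 at 10.23 and 5.84. AP-1, TEAD and Hippo genes had 1 of 11, the TEAD cofactor gene Vgll3 at 5.00 and 9.10. Genes of ductus arteriosus tone had 2 of 14. Ptger4, the prostaglandin E2 receptor EP4 that keeps the ductus open, had 3 of its 4 peaks in this range, the strongest at 10.70 and 8.72, and the endothelin receptor gene Ednra had its single peak here, at 8.52 and 3.73.

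Assigned by the nearest protein-coding TSS instead, and set against the sequence available, the lists came out in another order. AP-1, TEAD and Hippo genes then had 7 of the peaks in 0.479 Mb, or 14.6 per Mb. Wnt pathway genes had 14 (9.37 per Mb) and TGF-beta and BMP genes 21 (9.13 per Mb). The values were 5.77 per Mb for genes of ductus tone, 5.7 for guidance genes and 3.14 for FGF, PDGF and EGF family genes, where the whole range had 2.65. Notch pathway genes had 1.63 per Mb, SRF and partner genes 1.06, and cadherins and integrins 0.935. Most of these rest on few peaks, and the assignment was chosen after the authors' one had been counted.

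The peaks next to the limits of the range are given as examples and were not compared with the rest. Just inside the range at its near limit were a peak of Itga8, at 100031 bp with 4.71 and 10.89, and one of Gm5860, at 100057 bp with 8.75 and 5.84. Just outside were Adamts1, at 99886 bp with 6.92 and 9.10, and Nr3c1, at 99850 bp with 9.37 and 3.73. At the far limit Isl1, at 299808 bp, and Mat2b, at 299647 bp with 10.23 and 5.10, were in, and Gm15217, at 300041 bp with 7.95 and 6.39, and Irak1bp1, at 300156 bp with 5.42 and 5.10, were out.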

How the data were processed

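The series held 2 PRDM6 ChIP and 2 Input libraries of cultured mouse outflow tract SMCs. Per the submitters' processing notes, the authors aligned reads to mm10 with BWA and called peaks with MACS2, whose versions are not given in the sources used here. The study's methods state a mapping quality of at least 13 and calling against matching Input controls. That peaks were matched by IDR was read from the columns of the list. The deposited −log10 p-values were given by the authors per replicate and, for the matched peak, as the smaller of both in all 13977 rows, and the lowest of them is 3.01, that is, about the P limit of 0.001. The deposited score is the authors' scaled IDR. First-listed and second-listed refer to the order of the replicates in the list, which gave them no names. Columns for a signal and a q-value held placeholders and were not used.

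The rule was applied to the authors' annotation (distal intergenic, distance above 100 and at most 300 kb). Distances by another annotation used GENCODE mouse release M21 (basic set), and sequences the GRCm38 RefSeq genome with its soft-masked repeats. A total of 8 motifs were searched on both strands within 100 bp of the summit and in flanks centred 1000 bp away, compared by an exact two-sided McNemar test with Benjamini-Hochberg adjustment at 0.05. Shares have 95% Wilson intervals, densities 95% Poisson intervals and differences Newcombe intervals, the last also widened to 99.75% for 20 comparisons. These cover counting error over peaks, which are not replicates, and neighbouring peaks are not independent. Genes named in the text were the 10 strongest peaks, those at a global IDR of at most 0.01, the 10 genes with the most peaks (ties by summed strength), up to 4 genes a list by their strongest peak, the 5 largest clusters (ties by summed strength) and the peaks next to the limits. Adamts5 and the assigned genes with 8 or more peaks are named for their counts, and Fasl, Runx2, Sfrp2, Dchs2 and Agtr1b as neighbours. The members, lists and motifs were chosen with earlier results of these data known. Alternatives were other distance limits, another annotation, a stricter IDR, other windows and flanks, each replicate alone, 1 peak per cluster and other gaps. The motif search, the McNemar test, the intervals and the clustering were tested on simulated data. Scripts ran in Python 3.11.15 with SciPy 1.17.1, pandas 2.3.3 and NumPy 2.4.6, and figures were drawn with matplotlib 3.10.9.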

Additional observations from a re-analysis of the deposited data

How the results depend on the processing

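No paired analysis was possible because the list holds no Input value and names its replicates only by order. The AP-1 concentration at summits passed the threshold under every alternative run, and TEAD under all but 1. At a global IDR of at most 0.05 only 45 peaks and 43 assigned genes were left, 1 motif passed the threshold in place of 2, the TEAD ratio was 5 (10 summits against 2 flanks, adjusted p = 0.154, exact McNemar test), and the upstream share was 44.4%, all with fewer peaks. With gene starts from GENCODE 467 peaks met the rule, of which 260 were shared, 21.4% of the peaks here and 55.7% of that set. With a gap of 20 kb there were 12 clusters of at least 5 peaks in place of 32. With the summits of the first-listed or the second-listed replicate alone the AP-1 ratio was 3.58 or 2.83, the TEAD ratio 1.96 or 2.65 and the number of motifs past the threshold 3 or 2. The RUNX ratio was 1.88 with 50 bp windows, 1.56 with flanks 3000 bp away and 1.72 with first-listed summits, each past the threshold, as it was with 200 bp windows, and the cause was not tested.

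Differences from the peaks at 20 to 100 kb whose 95% interval was off 0 numbered 2 in place of 1 with only the strongest peak of each cluster, where TEAD differed by 2.51 points, and 2 with only peaks above the median, where it differed by 2.83. They numbered 0 in the first-listed replicate alone and 1 in the second-listed replicate alone, over the 5 measures that can be had per replicate, of which 0 were off 0 with the matched values, where TEAD differed by 0.405 and 2.56 points. The cause was not tested. On autosomes alone, chosen after seeing the data, peaks at 100 to 300 kb from a protein-coding TSS numbered 5.31 per Mb in place of 4.88. The other 158 values kept their direction and their side of the threshold or moved within the spread, and no direction was reversed among those past a threshold. Library depth was not analysed here, and 465 peaks had the lowest score of the list.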

Other observations

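The peaks at a global IDR of at most 0.05 that the text has not named included 3 at microRNA genes besides Mir148a. The peak assigned to Mir221, on the X chromosome 271747 bp from the TSS, measured 14.87 in the first-listed replicate and 14.91 in the second-listed and had a TEAD motif. The peaks assigned to Mir6348 and Mir6354 measured 14.87 and 15.72, and 12.84 and 13.73. Other well-matched peaks were at Prickle1, a planar cell polarity gene, with 13.87 and 17.78, at Klf6, a zinc finger factor, with 15.85 and 10.89, and at Phactr1, an actin and phosphatase regulator, with 15.85 and 13.73 and both an AP-1 and a TEAD motif. Atp6ap1l and Tmem38b had 2 such peaks each. These genes were picked after their values were seen, and their values are given as a description.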
